A study of Homo sapiens with 13 samples.

Results

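The keratin gene clusters were taken as 2 hg19 windows, and their members were the FOXA1 peaks whose centre lies inside. The windows were picked from regions where peaks of these lists had been seen, so the numbers and levels of peaks are given as descriptions without a test. The type II window runs from 52.50 to 53.45 Mb on chromosome 12 and holds the cluster with KRT7, KRT8 and KRT18. The type I window runs from 38.75 to 39.80 Mb on chromosome 17 and holds the cluster with KRT19, KRT39 and KRT40. The windows contained 93 of 68107 peaks, which were 64 of 54855 Ishikawa peaks and 29 of 13252 Hec1A peaks. FOXA1 was mapped by chromatin immunoprecipitation and sequencing (ChIP-seq) with a rabbit FoxA1 antibody in Ishikawa and Hec1A, which are human endometrial cancer cell lines. Ishikawa had 6 ChIP and 2 input libraries, and Hec1A had 3 ChIP and 2 input libraries, where input is sheared chromatin without immunoprecipitation. The labels name no treatment and no genetic change in either line. Peak calling used all ChIP tags of a line together, 343739762 in Ishikawa and 143055568 in Hec1A, so each line has 1 list and no value below has a replicate error.

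Keratins are the intermediate filament proteins of epithelial cells. A type I (acidic) and a type II (basic) keratin pair into a heterodimer, and the human genes of each type sit together in 1 cluster, except that KRT18, a type I gene, lies beside its partner KRT8 in the type II cluster. KRT8 and KRT18 form the primary pair of simple epithelia, and KRT7 and KRT19 are further keratins of glandular epithelia such as the endometrium. KRT39 and KRT40 are hair keratins. FOXA1 is a forkhead pioneer factor that can bind closed chromatin and is active in hormone-responsive epithelia.

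By RefSeq (GRCh38.p14), the run of protein-coding genes from KRT80 to KRT18 held 27 genes, all of them keratins. KRT80 and KRT7 stood at the start of this run and KRT8 and KRT18 at its end, with hair keratins such as KRT81, epidermal keratins such as KRT5 and KRT1, and KRT4, a keratin of mucosal epithelia, between them. The run from KRT222 to KRT17 held 62 genes, which were 28 keratins and 34 keratin-associated protein (KRTAP) genes, whose products form the matrix of the hair shaft. There KRT39 and KRT40 preceded the KRTAP block, while KRT13, KRT15, KRT19, KRT14, KRT16 and KRT17 followed it. This table is of another build than the peaks. Peaks were therefore not assigned to a gene, exon or promoter, and binding is described by position alone. The ends of these runs were not placed in the hg19 windows, so a peak near a window edge may lie outside the run of keratin genes.

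The consensus that forkhead proteins bind was looked for in the RefSeq promoters of these genes, which run from 250 bases before to 50 bases after a start. Of the 55 keratin genes, 34 had an entry, with 38 promoters in all. The motif TGTTTAC, read on both strands, was found in 1 of the 38 (2.63%) and in 3.42% of all 35116 promoters. Another form, TGTTTGC, was chosen after the values were seen and was found in 3 of the 38 (7.89%), at KRT8, KRT24 and KRT27, and in 3.89% of all promoters. A stretch of bases cannot be both forms at once. KRT8, KRT39 and KRT40 had entries among the 6 genes that name the windows, and KRT8 and KRT40 held a motif. Their promoters are printed because they are where these genes carry the letters, which describes sequence and does not mark a bound site. Capitals mark the motif, TGTTTGC at bases 261 to 267 of the KRT8 run and GTAAACA, the reverse complement of TGTTTAC, at bases 200 to 206 of the KRT40 run. Both are written 5′ to 3′ on the gene's strand, which is minus, at chr12:52926420-52926719 and chr17:40984277-40984576 of GRCh38.p14.
KRT8: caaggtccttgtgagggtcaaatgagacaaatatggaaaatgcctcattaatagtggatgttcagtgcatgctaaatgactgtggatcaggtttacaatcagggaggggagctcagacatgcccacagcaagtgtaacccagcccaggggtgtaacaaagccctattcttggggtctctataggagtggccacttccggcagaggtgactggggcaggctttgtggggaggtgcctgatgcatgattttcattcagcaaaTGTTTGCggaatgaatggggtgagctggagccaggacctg
KRT40: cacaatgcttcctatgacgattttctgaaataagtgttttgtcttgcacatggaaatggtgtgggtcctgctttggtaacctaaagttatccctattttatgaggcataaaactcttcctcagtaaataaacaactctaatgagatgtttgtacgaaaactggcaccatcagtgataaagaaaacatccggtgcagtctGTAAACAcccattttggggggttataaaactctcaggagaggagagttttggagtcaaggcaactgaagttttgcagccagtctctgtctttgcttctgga

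Taken whole, both windows held more peaks per Mb than their chromosomes. The type II window, 0.95 Mb long, held 35 Ishikawa and 15 Hec1A peaks, or 36.8 and 15.8 per Mb. Between its first and last peak, chromosome 12 as a whole had 22.0 Ishikawa and 4.60 Hec1A peaks per Mb. The type I window, 1.05 Mb long, held 29 Ishikawa and 14 Hec1A peaks, or 27.6 and 13.3 per Mb, against 21.3 and 8.83 per Mb on chromosome 17. This did not hold in every part, with boundaries set after the values were seen. From 52.70 to 53.15 Mb there were 8.89 Ishikawa and 0 Hec1A peaks per Mb. The type I window had 16.7 and 3.33 below 39.05 Mb, and 17.5 and 10 from 39.25 to 39.65 Mb. The highest signals of both lines lay outside the middle of each window, where Ishikawa signals reached 17.7 in type II and 11.5 in type I. The lines did not match in every stretch. From 52.50 to 52.55 Mb the summed signal was 1115.6 in Ishikawa and 15.03 in Hec1A.

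**Figure D1:**
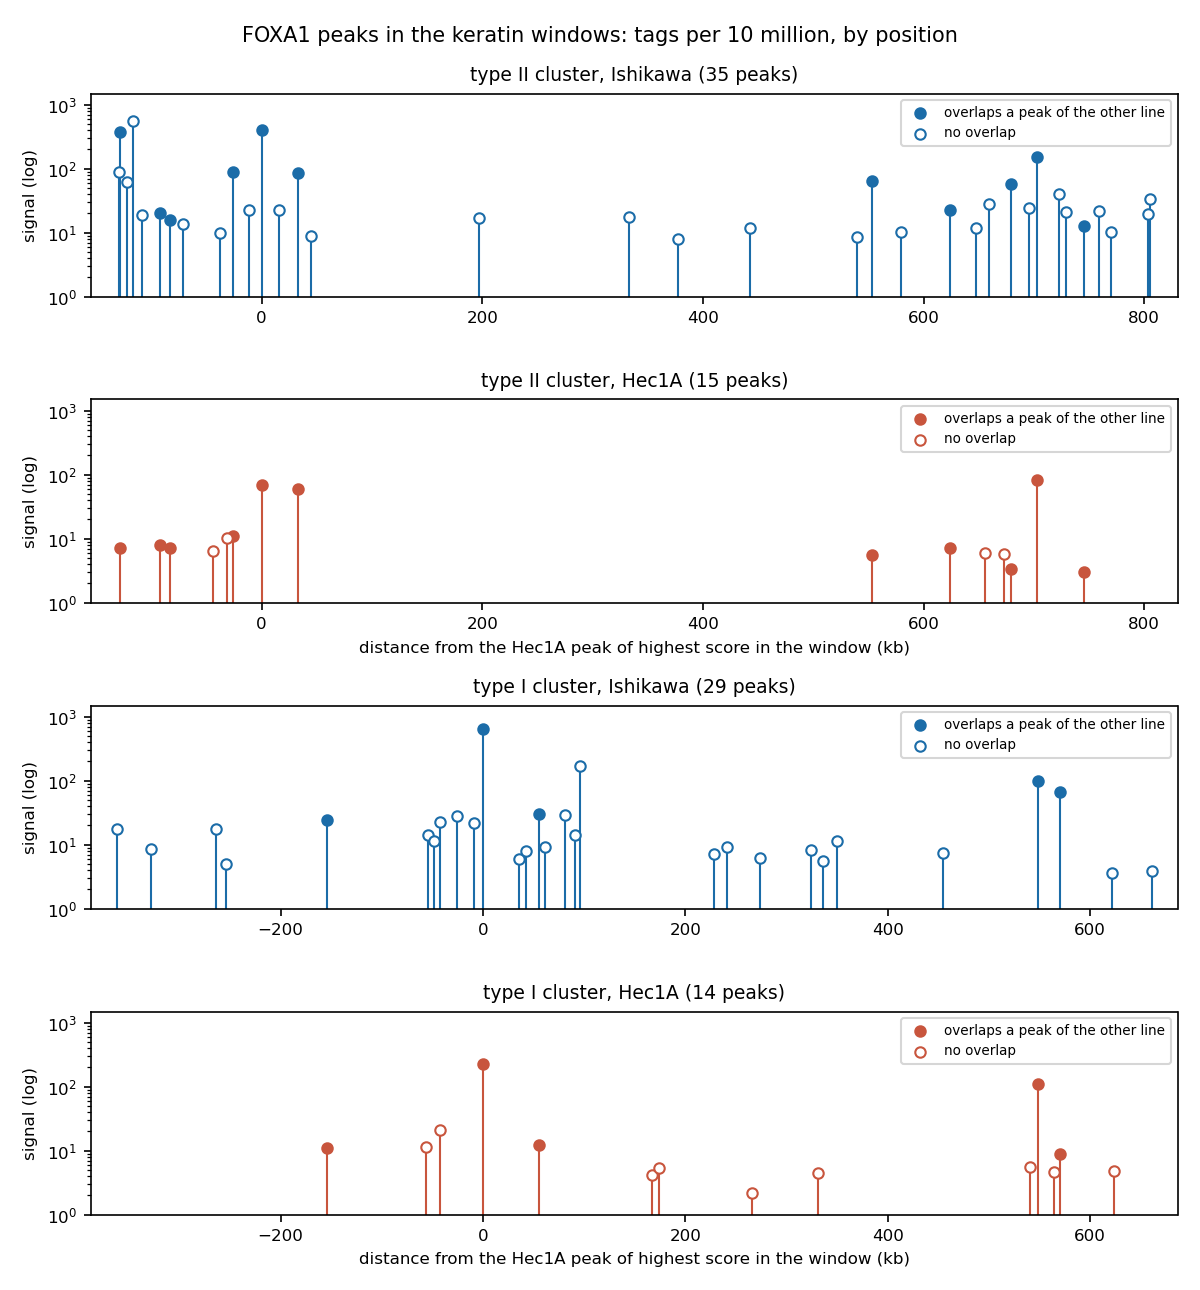
Signal of every FOXA1 peak in the keratin windows (y axis, tags per 10000000, log scale, stems drawn from 1) against its distance in kb from the Hec1A peak of highest score in the same window (x axis). Filled points overlap a peak of the other line by at least 1 bp and open points do not; strong peaks stand at both ends of the type II window, and the middle of that window holds 4 Ishikawa peaks and 0 Hec1A peaks.

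Signal is the tag number of a peak per 10000000 tags, and the fold over the local region compares a peak with the 10000 bp around it. Both are the authors' own values and were read within a list, except for the signal ratios of shared pairs. In the type II window, signal stood at both ends. Boundaries within the windows were set after the values were seen. The low end, from 52.50 to 52.70 Mb, held 15 Ishikawa and 8 Hec1A peaks. The high end, from 53.15 to 53.45 Mb, held 16 and 7. The part between them held 4 Ishikawa peaks, with signals from 8 to 17.7, and 0 Hec1A peaks. The median signal of these 4 was 14.5, beside 9.69 over the whole Ishikawa list. The longest step between neighbouring centres was 152.8 kb in Ishikawa, from the low end into this middle part, and 520.4 kb in Hec1A, across all of it.

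The low end began with a group of 5 Ishikawa peaks in 21.7 kb, the group with the most peaks in either window. Its strongest peak, at chromosome 12, 52524562 to 52524914, had a signal of 553.7, a local fold of 50.3 and the highest Ishikawa score in the type II window. No Hec1A peak overlapped it, and the nearest one lay 11.4 kb away. The next member of this group, at 52513121 to 52513473, had a signal of 370.5 and was met by a Hec1A peak at 52513197 to 52513451 with a signal of 7.06. Other Ishikawa peaks of this group, at 52511813 to 52512165 and at 52519350 to 52519702, had signals of 89.4 and 62.5 but folds over the local region of 4.90 and 6.05. The nearest stronger Ishikawa peak was 1.31 and 5.21 kb from them.

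Further along the low end lay the strongest Hec1A site of the window by score. It was at 52641214 to 52641468 with a signal of 68.2 and a fold of 39.3, and the Ishikawa peak at 52641165 to 52641517 had 397.7 and 56.6. Their centres fell on the same base pair. At 52674253 to 52674507 Hec1A had a signal of 59.8 and a fold of 40.7, and Ishikawa, at 52674205 to 52674557, had 86.2 and 20.3. By score these sites had ranks 3 and 7 among Hec1A peaks on chromosome 12, and ranks 9 and 114 among Ishikawa peaks. A weaker shared site at 52614911 to 52615165 had 10.9 in Hec1A and 89.7 in Ishikawa, and shared sites at 52549328 to 52549582 and 52558523 to 52558777 had 7.97 and 7.06 in Hec1A and 20.6 and 15.9 in Ishikawa. Hec1A peaks at 52597083 to 52597337 and 52609513 to 52609767, with signals of 6.36 and 10.2, had no Ishikawa partner.

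At the high end 1 site stood above the others in both lines. It lay at 53343610 to 53343864 in Hec1A, with a signal of 83.2 and a fold of 72.5, and at 53343562 to 53343914 in Ishikawa, with 153.8 and 55.7. Its fold was the highest of the 29 Hec1A peaks in the keratin windows. The Ishikawa peaks with the next highest signals at this end were at 53194587 to 53194939, with 65.0, and at 53320230 to 53320582, with 57.0. Their Hec1A partners, at 53194632 to 53194886 and 53320407 to 53320661, had signals of 5.59 and 3.36. The other shared sites at this end were at 53265024 to 53265278, with 7.06 in Hec1A and 22.8 in Ishikawa, and at 53386507 to 53386761. The latter had 3.01 in Hec1A and an Ishikawa partner 4.15 times higher. Over the whole lists the median signals were 4.96 in Hec1A and 9.69 in Ishikawa. Hec1A peaks at 53296995 to 53297249 and 53313681 to 53313935, with signals of 6.01 and 5.80, had no partner.

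The type I window was led by a single site. It lay at chromosome 17, 39114408 to 39114662 in Hec1A, where its signal of 228.9 made up 52.6% of the signal of the 14 peaks. In Ishikawa, at 39114362 to 39114714, its signal of 639.3 made up 49.1% of that of the 29 peaks. The folds over the local region were 67.3 and 124.4, and by score the site had rank 5 in the whole Hec1A list and rank 32 in the Ishikawa list. From 39.05 to 39.25 Mb around it lay 13 Ishikawa and 4 Hec1A peaks. The second Ishikawa peak of the window by score, at 39210372 to 39210724, had a signal of 166.9 and a fold of 74.6, and no Hec1A peak within 40.7 kb. Other Ishikawa peaks here ranged from 5.91 to 30.1. The Hec1A peak at 39169741 to 39169995 had a signal of 12.1 and its Ishikawa partner, at 39169696 to 39170048, had 30.1. The Hec1A peaks at 39058285 to 39058539 and 39071699 to 39071953, with signals of 11.5 and 21.0, lay 1.64 and 0.693 kb from the nearest Ishikawa centre.

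Between 39.25 and 39.65 Mb the median signal was 7.3 in Ishikawa and 4.26 in Hec1A, beside 9.69 and 4.96 over the whole lists. The local fold of the Ishikawa peaks there reached 17.6. There were 7 Ishikawa peaks with signals from 5.53 to 11.5 and 4 Hec1A peaks with signals from 2.17 to 5.31, at 39281435 to 39281689, 39288347 to 39288601, 39380580 to 39380834 and 39445016 to 39445270, and none of them overlapped a peak of the other line. A second strong site followed at 39662696 to 39662950 in Hec1A, with a signal of 110.7 and a fold of 69.3. In Ishikawa it was at 39662647 to 39662999, with 99.9 and 55.9, and the centres fell on the same base pair. Ishikawa had a further strong peak at 39684504 to 39684856, with a signal of 67.5 and a fold of 40.2, whose Hec1A partner at 39684524 to 39684778 had 8.81 and 6.87. Hec1A peaks without a partner at this end were at 39654516 to 39654770, with 5.59, at 39678250 to 39678504, with 4.61, and at 39737376 to 39737630, with 4.82. Below 39.05 Mb lay 5 Ishikawa peaks with signals up to 24.3 and 1 Hec1A peak, at 38959932 to 38960186, with 10.9, which overlapped the strongest of the 5 at 38959843 to 38960195. The other two Ishikawa peaks among the 8 of highest score were at 39195353 to 39195705 and 39088782 to 39089134, with signals of 28.8 and 27.6 and no partner.

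The window edges cut through peaks of similar size in part. At the high edge of the type II window the last Ishikawa peak inside, 3.50 kb from the edge, had a signal of 34, and the first outside, 5.36 kb beyond it at 53455185 to 53455537, had 108.5. At its low edge the nearest Ishikawa peaks inside and outside had 89.4 and 9.98, and the nearest Hec1A peaks 7.06 and 3.36. The Hec1A peaks next to the high edge had 3.01 inside and 6.29 outside. In the type I window the Ishikawa pairs inside and outside had 17.5 and 13.1 at the low edge and 3.93 and 13.3 at the high edge. The Hec1A pairs had 10.9 and 10.6, and 4.82 and 6.29.

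The lines shared 16 sites in the windows, counted as an overlap of at least 1 bp. In the type II window 11 of 15 Hec1A peaks (73.3%, 95% Wilson interval 48.0% to 89.1%) and 11 of 35 Ishikawa peaks (31.4%, 18.6% to 48.0%) had a partner. In the type I window 5 of 14 Hec1A peaks (35.7%, 16.3% to 61.2%) and 5 of 29 Ishikawa peaks (17.2%, 7.60% to 34.5%) had one. Over the whole lists the shares were 52.9% of Hec1A and 12.8% of Ishikawa peaks. On the rest of chromosome 12 they were 61.9% and 12.8%, and on the rest of chromosome 17 they were 49.1% and 20.3%. The intervals treat peaks as independent and cover counting error alone, and since the windows were picked with the peaks known, no test is read from them.

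**Figure D2:**
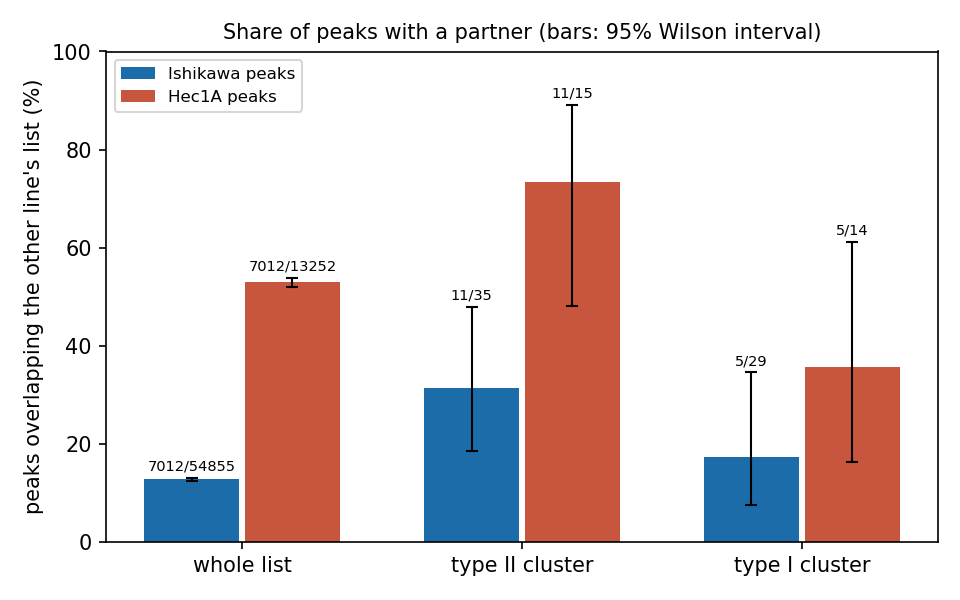
Share of peaks that overlap a peak of the other line (y axis, percent) in the whole lists and in each keratin window, with the Ishikawa and the Hec1A list as separate bars, 95% Wilson intervals as error bars and counts above them. The type II window reads 31.4% and 73.3% and the type I window 17.2% and 35.7%, against 12.8% and 52.9% in the whole lists.

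Shared peaks of the windows had higher median signals than the others, as they did over the whole lists. Among the 8 Ishikawa peaks of highest score, 5 had a partner in the type II window and 5 in the type I window. Over the whole Ishikawa list, peaks with at least the score of the eighth of them had a partner in 44.6% of cases for the type II score and 35.6% for the type I score, so 5 of 8 stands next to a high background. The 5 pairs of the type I window were all among its 8 highest-scoring Ishikawa peaks. In the Hec1A list the 8 highest-scoring peaks of the type II window all had a partner, and 5 of 8 did in the type I window. At those scores 75.0% and 72.9% of the whole Hec1A list had one. Each window count rests on 8 peaks, and its difference from these shares was not tested. Ishikawa peaks with a partner had a median signal of 66.3 (n = 16, highest 639.3), and those without had 13.8 (n = 48, highest 553.7). For Hec1A the medians were 9.86 (n = 16, range 3.01 to 228.9) and 5.59 (n = 13, range 2.17 to 21.0). Over the whole lists the medians with and without a partner were 19.1 and 9.02 in Ishikawa and 5.59 and 4.54 in Hec1A. The ranges overlapped in both lines, and the Ishikawa peaks of 553.7 and 166.9 were the strongest without a partner.

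The centres of a shared pair are close by the definition of overlap, at most 303 bp apart over all pairs of the lists. The distance between the centres was 4 bp at the median of the 16 pairs (range 0 to 264 bp) and 14 bp at the median of all pairs. Of the 16, 10 lay within 25 bp, a share near the 65.1% of all 7012 shared pairs of the lists. The pair at 53386507 to 53386761, which is the one of 264 bp, overlapped by its margins. The ratio of Ishikawa to Hec1A signal ran from 0.902 to 52.5 over the 16 pairs with a median of 3.01, and was 3.53 at the median of all pairs. Ishikawa peaks were 353 bp and Hec1A peaks 254 bp wide, and peaks held 9.66% of Ishikawa and 1.12% of Hec1A tags, so a ratio is read against those of the other pairs.

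The ratios of the pairs ranged more widely than the binomial intervals of single pairs. The site at 39662696 to 39662950 had a ratio of 0.902 (95% exact binomial interval from the tag numbers, 0.850 to 0.958). It was the one of the 16 with the higher signal in Hec1A, which held for 6.43% of all pairs. Its scores were 3310 in Ishikawa and 1326 in Hec1A, beside tag numbers of 3434 and 1584. The score fell further below the tag number in Hec1A, so this direction rests on the signal, and no ratio was taken from scores. The strong site at 39114408 to 39114662 had a ratio of 2.79 (2.69 to 2.90), and that at 53343610 to 53343864 had 1.85 (1.74 to 1.97). At the other extreme stood the low-end site at 52513197 to 52513451, with a ratio of 52.5 (43.2 to 64.5), above that of 99.6% of all pairs. The neighbouring sites at 39662696 and 39684524, 21.9 kb apart in Ishikawa, had ratios of 0.902 and 7.66. These intervals rest on tag numbers recovered from the rounded signal and leave out variation between libraries. They also treat every tag as independent, so they may be too narrow where tags are repeated. At 39114408 the tag numbers were 21975 in Ishikawa and 3275 in Hec1A, and the scores were 8775 and 2277. Over the 16 pairs the tag numbers were 43 to 3275 for a Hec1A peak and 430 to 21975 for an Ishikawa peak.

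**Figure D3:**
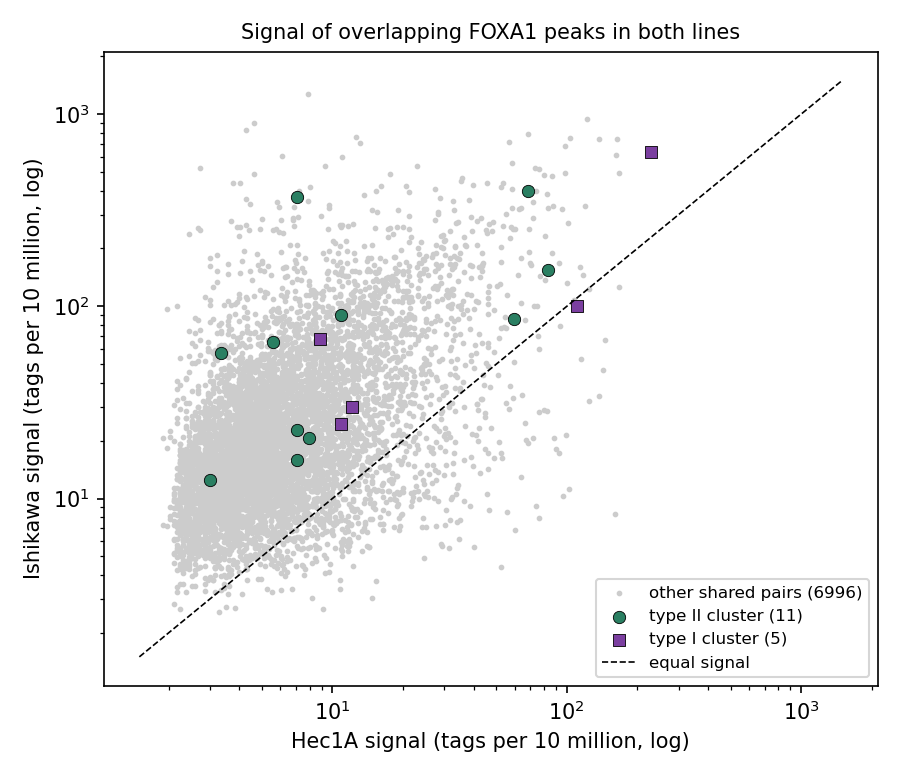
Ishikawa signal (y axis) against Hec1A signal (x axis) of overlapping peaks, both in tags per 10000000 on log scales, with the 11 pairs of the type II window, the 5 pairs of the type I window and the other pairs of the lists in grey. The dashed line marks equal signal; 1 keratin pair, with 110.7 in Hec1A and 99.9 in Ishikawa, lies below it.

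The clonal fold says how far the tags of a peak share positions, and values above 1 mark tags stacked on fewer positions than HOMER expects. In the windows 8 of 29 Hec1A peaks (27.6%) and 17 of 64 Ishikawa peaks (26.6%) were above 1, against 28.8% and 25.1% of the lists. None of these 8 Hec1A peaks had a partner (0 of 8, 95% Wilson interval 0% to 32.4%), and none of the 17 Ishikawa peaks did (0 of 17, 0% to 18.4%). Over the lists 24.6% and 4.14% of such peaks had one. The remaining 21 Hec1A peaks of the windows included the 16 with a partner (76.2%), against 64.4% of such peaks over the list. Of the 13 Hec1A peaks that stood alone, 8 had stacked tags, 3 in the type II and 5 in the type I window, and 46.2% of all Hec1A peaks without a partner had them. The part of repeated reads in these peaks was not tested. The windows differed in the Ishikawa list, where 3 of 35 type II peaks and 14 of 29 type I peaks had a clonal fold above 1.

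**Figure D4:**
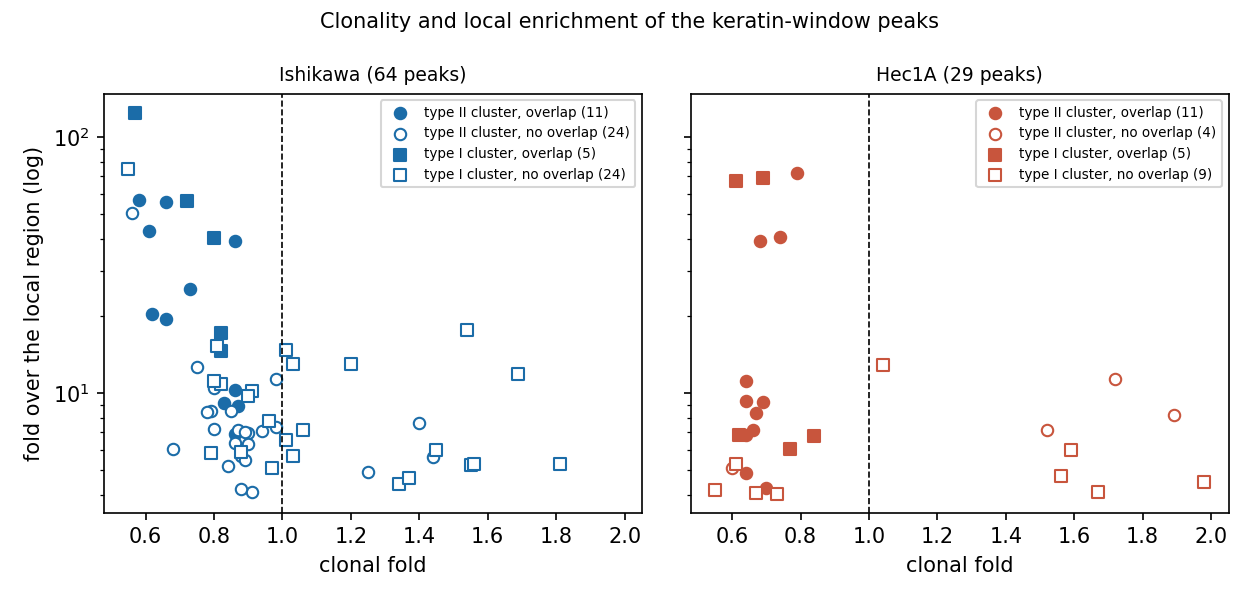
Fold over the local region (y axis, log scale) against the clonal fold (x axis) of the 64 Ishikawa and 29 Hec1A peaks in the keratin windows, with circles for the type II window, squares for the type I window and filled symbols for peaks that overlap one of the other line. To the right of the dashed line at a clonal fold of 1 there are 17 Ishikawa and 8 Hec1A peaks, and no symbol there is filled.

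Enrichment of the members was read against each list as a whole. The median fold over the local region of the Ishikawa peaks was 7.62 in the type II window and 10.2 in the type I window, and 6.93 in the list. For Hec1A it was 8.32, 5.64 and 5.71. A fold of at least 8 was reached by 17 of 35 type II and 16 of 29 type I Ishikawa peaks, against 40.1% of the list, and by 9 of 15 and 3 of 14 Hec1A peaks, against 26.0%. The type I Hec1A peaks thus split into 3 with folds from 12.9 to 69.3 and 11 with folds up to 6.87. The focus ratio, which is close to 1 where tags lie tightly around the centre, had medians of 0.871 and 0.861 in Ishikawa and 0.826 and 0.844 in Hec1A, beside 0.829 and 0.823 in the lists. The 5 Hec1A sites of highest signal in the windows had focus ratios from 0.912 to 0.985.

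Input tags per Ishikawa peak were higher on chromosome 12 than over the list. Pooled Ishikawa input held a median of 10 tags per peak in the type II window, 8 on the rest of chromosome 12 and 5 over the list, while the type I window had 5. The fold over input of the Ishikawa members had a median of 8.82 in the type II and 9.80 in the type I window, beside 7.80 in the list, and 7.36 and 7.60 on the rest of chromosomes 12 and 17. It was 153.2 for the peak at 52524562, 118.5 at 52641165, 95.6 at 52513121, 23.8 at 53343562, 165.0 at 39114362, 92.4 at 39210372 and 55.2 at 39662647. The highest fold over input in the windows, 346.5 at 52511813, rested on an input value of 1. That peak had a local fold of 4.9 and a clonal fold of 1.25. The Hec1A list has no values for input. Its local background, which is the signal divided by the fold over the local region, had a median of 1.23 tags per 10000000 in the type I window, 1.00 on the rest of chromosome 17 and 0.810 over the list, and 0.983 in the type II window against 0.750 on the rest of chromosome 12. The part of regional tag levels in the peak numbers was not tested.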

How the data were processed

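Per the labels' protocols, libraries were made with either of 2 kits, TruSeq or ThruPLEX, and both kits occur in each pool. The tools were HOMER 4.7.2, Bowtie 1.1.2 and SAMtools 1.3.1 with hg19, per the submitters' processing notes. HOMER findPeaks was run on pooled tags in factor mode, per the file headers, at a false discovery rate of 0.001, a fold of 4 over the surrounding 10000 bp and a clonal limit of 2. Ishikawa peaks also had to exceed pooled input by a fold of 4, and the recorded Hec1A command names no input. The deposited signal is the tag count per 10000000 tags. The deposited input tags, which hold 0.5 in place of 0, are whole numbers in the windows and are not on the scale of the signal. The deposited folds are ratios, the deposited focus ratio is a fraction, and the deposited score is in tags. At strong peaks the score can lie far below the tag number recovered from the signal, as 8775 beside 21975 at 39114362 in Ishikawa. The deposited p-value columns were not used.

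Members, overlaps and summaries were computed with Python 3.11.15, numpy 2.4.6, pandas 2.3.3 and scipy 1.17.1, and the overlap and window steps were tested on simulated lists. Peaks were joined into groups at gaps of 12.5 kb or less. Named are all Hec1A members, the Ishikawa peaks that overlap them and the 8 Ishikawa peaks of highest score per window. The members and lists were chosen with earlier results of these data known. Alternatives were other edges, thresholds and overlap definitions. Libraries were pooled in both lists, so no library could be left out. An hg19 annotation and genome sequence were not used here.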

Additional observations from a re-analysis of the deposited data

How the results depend on the processing

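Of 66 alternatives over 14 results, 52 kept a count within 1.5 times, or a share or median inside the 95% interval of its first value. Keeping peaks at 8 or more times the local region left 17 Ishikawa and 9 Hec1A peaks in the type II window, and 16 and 3 in the type I window, where 66.7% of those 3 Hec1A peaks had a partner. Without peaks of a clonal fold above 1 the type I window held 15 Ishikawa and 9 Hec1A peaks, and 91.7% of the type II Hec1A peaks had a partner. Of Ishikawa peaks, 19 in the type II and 18 in the type I window reached 8 times input. With edges moved inwards by 100 kb the type II window held 20 Ishikawa peaks, 10 of them at 8 or more times the local region. With the Ishikawa list at the length of the Hec1A list, 11 type I peaks were left and 45.5% of them had a partner. The lower numbers follow from fewer peaks being kept, and for the shares the cause was not tested. The Hec1A shares rest on 15 and 14 peaks, so that few peaks set the difference between the windows. No paired analysis was possible because both peak lists were made from pooled libraries.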
